A study of Mus musculus with 3 samples.

Results

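Replication-dependent histone genes were followed in RNA bound to the chromatin of mouse macrophages. The set held every gene whose symbol begins with Hist1h, Hist2h, Hist3h or Hist4h and that has a protein-coding transcript, which gave 67 of 55536 annotated genes and of 22028 protein-coding genes. By protein class these were 6 genes for H1, 18 for H2A, 18 for H2B, 12 for H3 and 13 for H4. All 3 libraries belong to 1 group and are called replicates 1, 2 and 3 after their labels. The cells were macrophages grown from the bone marrow of C57BL/6J mice, whose age and sex were not collected, and every library carries the same donor entry, which stands for the strain. They received Lipid A, the membrane anchor of bacterial lipopolysaccharide, at 100 ng/ml for 12 h, were washed out for 12 h, and received 100 ng/ml again for 40 min. RNA of the chromatin fraction, which is rich in transcripts still being made, was sequenced after removal of ribosomal RNA. No untreated cells and no cells exposed only once enter the comparison, and a response to Lipid A is therefore not given. Nothing says whether the libraries came from separate animals or cultures, so spread and p-values measure only differences between these samples.

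Histones package DNA: H2A, H2B, H3 and H4 form the core of the nucleosome and H1 binds the linker between nucleosomes. The replication-dependent genes are intronless, lie in clusters, and are used mainly in S phase, when new DNA must be packaged. Their mRNAs as a rule carry no poly(A) tail. The transcript is instead cleaved shortly after a stem-loop that the protein Slbp binds, guided by the U7 small nuclear ribonucleoprotein. Bone-marrow-derived macrophages divide in response to the growth factor CSF1, and activation through Toll-like receptor 4 is known to slow their division.

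The stem-loop is shown first because later results are ordered by where the annotated transcript ends relative to it. Searched on the coding strand as 16 bases (GG, 2 free bases, CTTTT, 1 free base, AG, 2 free bases and CC), it was found in transcripts of 44 of the 67 genes, in 6 spellings. The spelling in Hist3h2a was in 26 genes (10 for H2A, 8 for H2B, 5 for H3 and 3 for H1). The spelling in Hist1h1t was in 6 genes (3 for H3, 2 for H2B and Hist1h1t itself), and that in Hist2h2ac was in Hist2h2ac alone. The other spellings were found in H4 genes only: that in Hist1h4m in 7 genes, that in Hist1h4i in 2 and that in Hist1h4b in 2. Below, 1 gene stands for each spelling, with the stem-loop in capitals and up to 5 flanking bases on each side, 5′ to 3′, from the GENCODE M21 transcripts.
Hist3h2a: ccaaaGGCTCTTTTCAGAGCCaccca
Hist2h2ac: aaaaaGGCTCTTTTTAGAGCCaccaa
Hist1h1t: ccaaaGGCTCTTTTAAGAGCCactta
Hist1h4m: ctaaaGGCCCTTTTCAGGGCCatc
Hist1h4i: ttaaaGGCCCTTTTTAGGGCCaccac
Hist1h4b: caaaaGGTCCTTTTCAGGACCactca
On mm10 these stem-loops lie at chr11:58955172-58955187 (plus strand, Hist3h2a), chr3:96220418-96220433 (minus strand, Hist2h2ac), chr13:23696525-23696540 (plus strand, Hist1h1t), chr13:21812129-21812144 (plus strand, Hist1h4m), chr13:22040966-22040981 (minus strand, Hist1h4i) and chr13:23757366-23757381 (plus strand, Hist1h4b). All 6 are in the 3′ untranslated part of a transcript with 1 exon, and they begin 41, 21, 29, 33, 30 and 33 bases after the stop codon. No spelling was shared between an H4 gene and a gene of another class. The named bases of the motif are the same in all by construction.

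The gene tables held 13802716, 17187524 and 16502809 expected counts in replicates 1, 2 and 3, which were made from 1 µg, 250 ng and 500 ng of RNA. Where a gene has 0 counts, a true value of 3 counts is still possible, which is 0.217, 0.175 and 0.182 CPM, a count relative to the size of its library. This limit and the intervals given later take in counting error alone, since no molecular identifiers mark copies of the same molecule. All 10 macrophage markers were detected, with a summed level of 1908 to 2457 CPM. In the gene tables none of the markers of neutrophils (8), T cells (5), B cells (6), NK cells (5) or erythroid cells (6) was detected, and their sums were at most 0.873 CPM. Of 5 dendritic cell markers 2 were detected, with sums of 3.33 to 4.60 CPM. Of 6 fibroblast markers 3 were detected, and these 3 collagen genes (Col1a1, Col1a2 and Col3a1) had 0 counts in replicate 1 and 20 to 32 in replicates 2 and 3. The marker result was different in the deposited tables made directly from the reads, where 3 T cell, 2 B cell, 2 NK cell, 1 neutrophil, 5 dendritic cell and 5 fibroblast markers averaged at least 10 counts. Among the T cell markers, Cd3d had a mean of 475 counts there and 0 in the gene tables.

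Most histone genes had few counts in these libraries. With a mean of at least 10 expected counts taken as detected, 24 of 67 genes (35.8%) were detected, beside 49.7% of all protein-coding genes. A further 33 had some counts but fewer, and 10 had 0 in all 3 libraries. By class, 3 of 6 H1 genes, 6 of 18 H2A genes, 6 of 18 H2B genes, 1 of 12 H3 genes and 8 of 13 H4 genes were detected, so the H3 genes were the least and the H4 genes the most often found. Just inside the threshold were Hist1h4m with a mean of 12.6 counts, Hist1h1d with 10.7 and Hist1h4n with 10.6, and just outside Hist1h2ae with 9.44, Hist1h4k with 7.99 and Hist1h2ap with 6.76. The median member had 0.743 TPM, a level corrected for transcript length and library size, beside 0.44 TPM for all protein-coding genes. In the gene tables the set is thus found less often by counts, while its median level per length is not lower. In the tables made from the reads the median member had 0.768 TPM, beside 1.74 TPM for all protein-coding genes. There the median level was lower, so this comparison depends on the quantification. In bulk RNA such as this, fewer cells that make histone transcripts and less RNA per cell cannot be told apart.

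Summed over the 67 genes, the libraries held 1086, 831 and 670 histone counts. This was 0.00787% of library 1 (Wilson 95% interval 0.00741% to 0.00835%), 0.00483% of library 2 (0.00452% to 0.00517%) and 0.00406% of library 3 (0.00376% to 0.00438%). Replicate 1 thus had the largest share, and its interval does not meet those of the others. The summed TPM gave another order, 104, 111 and 92.9, a mean of 103 ± 9.25 (SD, n = 3). The summed TPM of the tables made from the reads was 127, 89.7 and 70.4, a mean of 95.7 ± 28.8, again highest in replicate 1, so the order on the TPM scale depends on the quantification. A single gene, Hist3h2a, held 30.5% ± 3.59 of the histone counts.

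The H1 genes, which encode linker histones, were low. Hist1h1c (ENSMUSG00000036181.2, chromosome 13, 23738808 to 23740367, plus strand) had 2.11, 1.73 and 1.09 TPM in replicates 1, 2 and 3, a mean of 1.64 ± 0.515 from 39.9, 32.0 and 19.0 counts. Hist1h1e (ENSMUSG00000051627.3, chromosome 13, 23620629 to 23622558, minus strand) had 1.02, 1.83 and 0.78 TPM, a mean of 1.21 ± 0.550. Their ranges overlapped, so their order is not separated by the spread. Hist1h1d (ENSMUSG00000052565.7, chromosome 13, 23553262 to 23560686, plus strand) had 0.17, 0.12 and 0.03 TPM, below both in every library of the gene tables. In the tables made from the reads it had 0.912, 0.819 and 0.975 TPM, and in replicate 3 it was above Hist1h1c (0.811) and Hist1h1e (0.592). Hist1h1t, the linker histone of male germ cells (ENSMUSG00000036211.4, chromosome 13, 23695814 to 23696725, plus strand), had 2, 4 and 1 counts, a mean of 0.247 TPM, and was not detected. Hist1h1a and Hist1h1b, the other members of the class, had 0.810 and 0.940 TPM and were not detected either.

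Among H2A genes, Hist3h2a (ENSMUSG00000078851.4, chromosome 11, 58954685 to 58956830, plus strand) had the highest mean of any detected histone gene in the gene tables. It had 11.3, 8.84 and 9.18 TPM, a mean of 9.77 ± 1.33, from 306, 238 and 232 counts. In the tables made from the reads it had 10.7, 6.35 and 6.64 TPM, a mean of 7.91, below Hist1h4k with 8.05. In TPM of the gene tables the values of Hist3h2a lie close together, and its counts are the deepest of the set. Scaled to library size, its counts were highest in replicate 1, with 22.4, 12.9 and 15.0 normalized CPM. The gene lies wholly inside Trim17, a ubiquitin ligase gene, on the same strand, and shares with it 32.1% of its 31-base words, the overlapping stretches of that length into which a transcript can be divided. Trim17 itself had 1.55, 2.65 and 1.67 TPM, highest in replicate 2, where Hist3h2a was lowest. How far unspliced Trim17 RNA adds to the Hist3h2a counts was not tested.

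Hist2h2aa2 (ENSMUSG00000063954.7, chromosome 3, 96239749 to 96240276, minus strand) had 3.19, 11.4 and 11.8 TPM, a mean of 8.79 ± 4.85. Replicate 1 was far below the other libraries. Its transcript shares every 31-base word with its copy Hist2h2aa1, which had 4.15, 3.03 and 1.93 TPM and was highest in replicate 1. The counts of the pair together were 36.8, 57.1 and 52.1, and the split between the copies is uncertain. On the opposite strand, Gm20632 covers all of Hist2h2aa2 (65.1, 59.0 and 25.2 counts) and Gm20633 all of Hist2h2aa1 (45.7, 75.8 and 46.8). On the same strand, Gm20634 covers 529 of the 586 bases of Hist2h2aa1 (68.0, 43.9 and 61.1). How far RNA of these genes adds to the pair was not tested, so its sum is uncertain too. Hist2h2ac (ENSMUSG00000068855.3, chromosome 3, 96220361 to 96220880, minus strand) had 6.06, 7.07 and 3.35 TPM, a mean of 5.49 ± 1.92, within the range of Hist2h2aa2. Hist1h2aa, a testis-specific H2A (ENSMUSG00000060081.1, chromosome 13, 23934462 to 23934851, plus strand), had 0 counts in all libraries. The other detected H2A genes were Hist1h2ad with a mean of 3.24 TPM and Hist1h2ac with 0.433. Of the 12 undetected ones 3 were at 0 in every library, and the highest was Hist1h2ai with 2.12 TPM. Of the 18 H2A genes 17 overlap an annotated microRNA gene on the opposite strand, and the sources used here do not say whether counting used the strand.

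Several H2B genes were highest in replicate 1. Hist1h2bg (ENSMUSG00000058385.8, chromosome 13, 23571396 to 23572013, plus strand) had 4.76, 4.16 and 2.84 TPM, a mean of 3.92 ± 0.982. Hist1h2bc (ENSMUSG00000018102.5, chromosome 13, 23684199 to 23692908, plus strand) had 5.69, 1.75 and 1.26 TPM, a mean of 2.90 ± 2.43 from 75.7, 22.3 and 15.2 counts. For Hist1h2bc, replicate 1 stood far above the other libraries. Hist1h2bq (ENSMUSG00000069307.6, chromosome 13, 21806612 to 21810197, minus strand) was listed with 2.70, 0 and 1.21 TPM. It shares all of its words with Hist1h2br, and the pair together had 121, 25.2 and 7.81 counts, again highest in replicate 1. Their split rests on few distinguishing bases: the posterior SD reported with the counts averaged 9.99 counts for Hist1h2bq, whose mean was 24.8 counts. Hist1h2ba, the testis-specific H2B (ENSMUSG00000050799.3, chromosome 13, 23933773 to 23934156, minus strand), had 0 counts in all libraries, like its neighbour Hist1h2aa. The other detected H2B genes, Hist1h2br, Hist2h2be and Hist1h2be, had means of 1.29, 0.743 and 0.710 TPM. Of the 12 undetected ones 3 were at 0 throughout, and the highest was Hist1h2bj with 1.97 TPM. Summed over the 18 H2B genes, the level was 24.0, 14.1 and 12.1 TPM.

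Of the 12 H3 genes, Hist1h3d (ENSMUSG00000099583.2, chromosome 13, 23575763 to 23577011, plus strand) was the only detected one. It had 3.11, 1.79 and 1.33 TPM, a mean of 2.08 ± 0.924 from 45.5, 25.2 and 17.6 counts, highest in replicate 1. Hist1h3b, Hist1h3g, Hist1h3i and Hist2h3c1, named here because their values were seen to be 0, had no counts in any gene table. The 7 remaining H3 genes had means of up to 1.87 TPM, the value of Hist2h3b, on too few counts.

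The H4 genes were short, and several had levels close to each other. Hist1h4b (ENSMUSG00000069266.5, chromosome 13, 23757013 to 23757409, plus strand) had 3.59, 5.66 and 8.22 TPM, a mean of 5.82 ± 2.32. Hist1h4i (ENSMUSG00000060639.5, chromosome 13, 22040636 to 22041362, minus strand) had 8.14, 4.62 and 4.24 TPM, a mean of 5.67 ± 2.15 from 59.7, 30.5 and 26.9 counts. Hist1h4m (ENSMUSG00000069306.5, chromosome 13, 21811746 to 21812147, plus strand) had 4.59, 9.91 and 1.80 TPM, a mean of 5.43 ± 4.12. Each of these was highest in a different library, and their ranges overlapped. Hist4h4, an H4 gene outside the clusters (ENSMUSG00000096010.2, chromosome 6, 136801553 to 136804415, minus strand), had 0.16, 0.56 and 0.57 TPM, a mean of 0.430 ± 0.234. It was below the 3 others in every library of the gene tables. In the tables made from the reads Hist4h4 had 1.17, 1.76 and 1.45 TPM, and in replicate 3 it was above Hist1h4m (1.15). The other detected H4 genes were Hist1h4n with a mean of 3.94 TPM, Hist1h4c with 2.00, Hist1h4d with 1.40 and Hist2h4 with 1.15. None of the 5 undetected H4 genes was at 0 in all libraries. Hist1h4k, with a mean of 6.13 TPM from 7.99 counts, shows how a short gene can have a high level on too few counts to be detected.

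**Figure D1:**
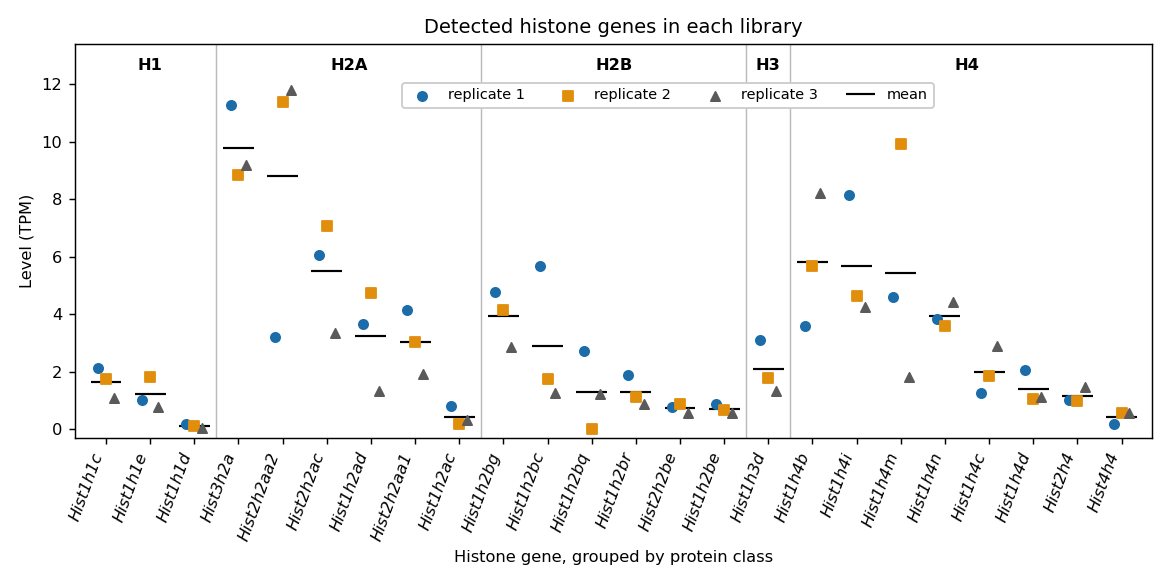
Level in TPM (y axis) of the 24 detected histone genes (x axis, grouped by protein class) in each of the 3 libraries, with the mean as a line. Hist3h2a has 8.84 to 11.3 TPM on this scale, Hist2h2aa2 is low in replicate 1, and Hist1h2bc is high in replicate 1.

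The classes took different shares of the histone total depending on the scale. In TPM, H2A genes held 38.3% ± 5.33 (SD, n = 3) and H4 genes 34.6% ± 1.60, with 16.3% ± 5.86 for H2B, 6.16% ± 0.710 for H3 and 4.75% ± 1.26 for H1. H2A and H4 were thus the leading classes, and in replicate 1 H4 was the higher of them. In expected counts, which are not corrected for length, H4 genes held 20.0% ± 3.41, H2A genes 45.6% ± 5.38 and H1 genes 9.68% ± 2.92. The share of H2B was 18.9% ± 7.94 and that of H3 5.72% ± 0.184. The shares of the core classes were not equal on either scale. They are shares of RNA and leave out the replacement variants, so they do not give the amounts of histone protein. The H2A share includes Hist3h2a and the pair Hist2h2aa1 and Hist2h2aa2, for which the part of overlapping genes was not tested.

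**Figure D2:**
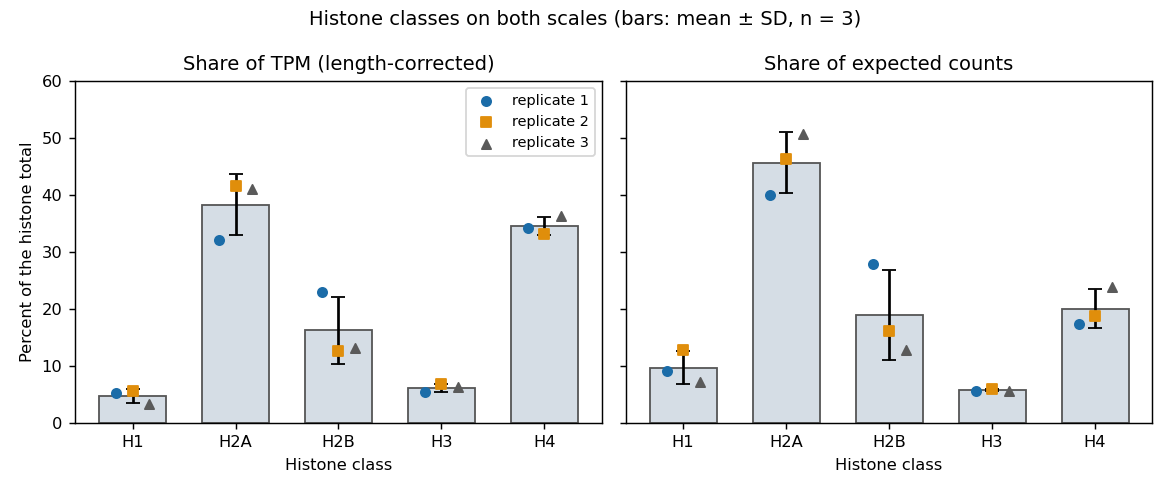
Share of the summed TPM (left) and of the summed expected counts (right) held by each histone class, in percent. Bars are means with SD over 3 libraries and points are the libraries; the H4 share falls from 34.6% in TPM to 20.0% in counts, and replicate 1 has the highest H2B share on both scales.

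Transcripts of these genes were grouped by where their annotation ends. Of 72 protein-coding transcripts, 22 end 3 to 74 bases after the stem-loop, near where the processed mRNA would end. Another 24 transcripts, of 22 genes, run 151 to 4884 bases past it, 15 are annotated only as the coding part, and 11 hold no stem-loop of this spelling. No transcript ended between 74 and 151 bases after the stem-loop, and the limit of 100 bases was set after these lengths were seen. Transcripts that run past the stem-loop held 66.8% ± 2.15 of the counts of these transcripts, with 68.8%, 64.5% and 67.1% in replicates 1, 2 and 3. Those that end near it held 20.0% ± 3.40. In TPM the order was the reverse, 33.5% ± 5.87 past the stem-loop (40.3%, 29.6% and 30.6%) and 46.4% ± 6.57 near it (38.9%, 51.0% and 49.3%), except in replicate 1, where the longer ones were slightly higher.

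Hist3h2a, which runs 1643 bases past its stem-loop, had the most counts of these genes. Without it, transcripts that run past the stem-loop held 50.9% ± 2.81 of the counts (54.2%, 49.4% and 49.2%) and those that end near it 29.6% ± 5.15. In TPM the shares without it were 26.4% ± 5.42 and 51.4% ± 6.51. Hist1h1c, Hist1h1e, Hist1h3d and Hist1h4i run 840, 1153, 752 and 330 bases past it, whereas Hist2h2aa2, Hist2h2ac, Hist1h4b and Hist1h4m end 35, 57, 28 and 3 bases after it. Hist1h2bc and Hist2h2be hold no stem-loop in their annotated transcript. A mean of at least 10 counts was reached by 12 transcripts that run past the stem-loop, 7 that end near it and 2 without it. A count on a longer transcript does not tell on which side of the stem-loop the read lay, so RNA that ended at the stem-loop and RNA that ran past it cannot be told apart within such a gene.

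**Figure D3:**
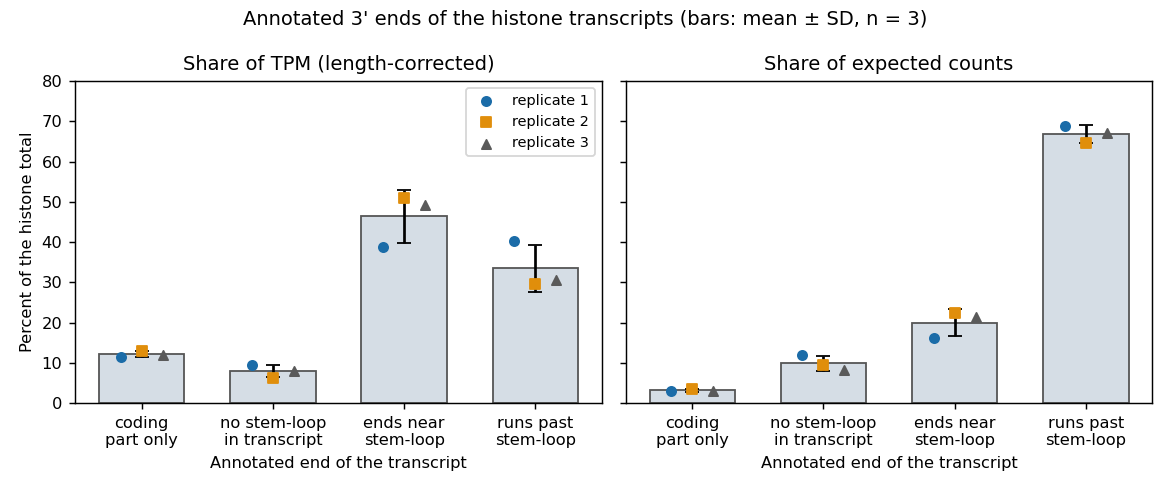
Share of the TPM (left) and expected counts (right) of the protein-coding histone transcripts, in percent, by how the annotated transcript ends. Bars are means with SD over 3 libraries and points are the libraries; transcripts that run past the stem-loop hold 33.5% of the TPM and 66.8% of the counts.

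The deposited tables made directly from the reads gave another view of the same libraries. There 29 of the 67 genes had a mean of at least 10 estimated counts, beside 66.9% of protein-coding genes. The 24 genes detected in the gene tables were among them, and Hist1h2ae, Hist1h2bf, Hist1h2bh, Hist1h4j and Hist1h4k were added. Of the 10 genes at 0 in the gene tables, Hist1h2aa, Hist1h2ba, Hist1h3b, Hist1h3g and Hist2h3c1 were also at 0 there. Genes named here and below that were not given by library above were chosen after their values were seen.

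For the 24 detected genes the median difference between the quantifications was -0.08 on the log2(TPM + 1) scale, beside 0.30 for all detected protein-coding genes. Spearman's rho between them was 0.817 across these 24 genes, which share libraries and sequence and are not independent replicates. Large differences were found in a few genes. Hist1h1d had a mean of 10.7 counts in the gene tables and 140 in the tables made from the reads, where replicate 1 was the lowest with 116 counts beside 148 and 155. Its annotated transcript of 7425 bases is the longest of the set. Hist4h4, with a transcript of 2863 bases, had 15.7 and 85.6 counts, and Hist1h2bh, with 1679 bases, had 1.36 and 24.8. In the other direction, Hist2h2aa2 had 8.79 TPM in the gene tables and 3.06 in those made from the reads, while its copy Hist2h2aa1 had 3.04 and 2.60.

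**Figure D4:**
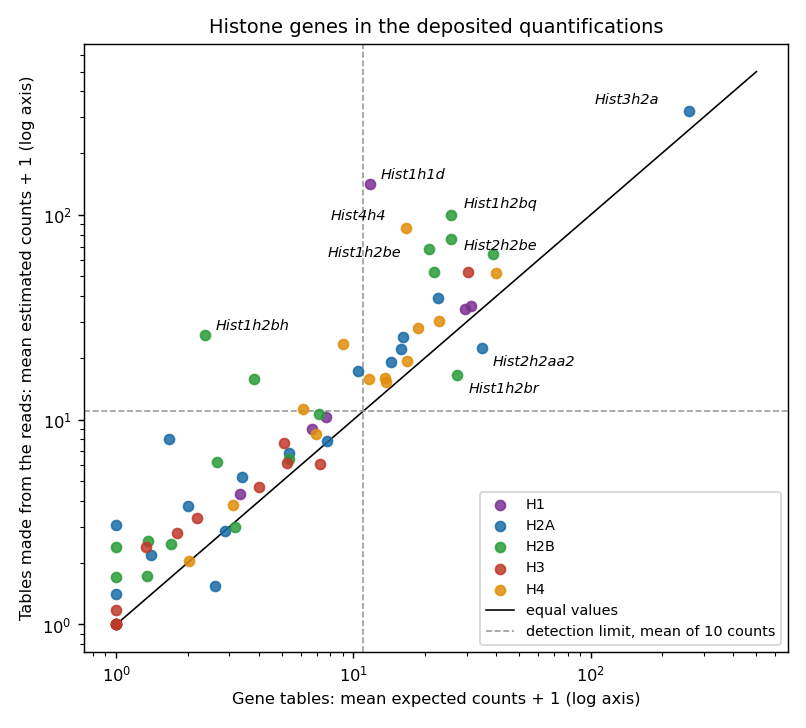
Mean expected counts + 1 in the gene tables (x axis, log) and mean estimated counts + 1 in the tables made from the reads (y axis, log) for the 67 histone genes, coloured by class. Most points lie on or above the line of equal values, Hist1h1d, Hist4h4 and Hist1h2bh lie far above it, and Hist2h2aa2 lies below.

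The members share much of their sequence, which limits how reads can be assigned. Across pairs of genes with the usual coding length, the median identity of the coding part was 96.4% for H2A, 97.2% for H2B, 97.2% for H3 and 93.9% for H4. The share of a gene's 31-base words found in no other gene had a median of 39.8% over the 67 genes and 65.9% over the 24 detected ones. By class it was lowest for H2A, 22.9%, and highest for H1, 96.2%. For 15 genes it was under 10%, among them the pairs Hist2h2aa1 and Hist2h2aa2, and Hist1h2bq and Hist1h2br. Hist3h2a and Hist4h4, which both run far past their stem-loop, had 67.9% and 85.7% of their words to themselves.

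Histone counts were compared between the libraries. In a chi-square test of each gene against Poisson sampling, with library sizes scaled by edgeR's TMM factors and Benjamini-Hochberg adjustment over 14320 genes at 0.05, 17 of the 24 detected histone genes were called, or 70.8%. Of all genes tested 54.9% were called, so such differences were common in these libraries. The test takes counts as independent molecules, which reads without molecular identifiers are not, and sets separate samples against sampling noise alone, so its p-values are too small as evidence of biological differences. Hist1h2bc had 5.53, 1.21 and 0.978 normalized CPM (adjusted p = 1.39e-17 by this chi-square test with edgeR factors). Hist3h2a had 22.4, 12.9 and 15.0 (adjusted p = 7.11e-10) and Hist1h4i 4.36, 1.65 and 1.73 (adjusted p = 3.21e-06). In these 3 genes replicate 1 stood above both of the others.

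Not called were Hist1h1e, Hist1h4b, Hist1h4c, Hist1h4n, Hist2h2be, Hist2h4 and Hist4h4. For Hist4h4, with 0.438, 1.14 and 1.29 normalized CPM and the lowest value in replicate 1, the adjusted p of the same chi-square test with edgeR factors was 0.0816. Of these 7 genes 5 encode H4, a class with 8 detected genes. The biological coefficient of variation, edgeR's estimate of the spread beyond counting noise, had a median of 0.341 over the 24 genes and 0.221 over all genes tested, whose median counts were 21.3 and 138.

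Most called genes were highest in replicate 1: 15 of 17, with Hist1h4m highest in replicate 2 and Hist2h2aa2 in replicate 3. Of all 24 detected histone genes it was 17, beside 29.1% of the 14320 genes tested. Hist1h1d, Hist1h2ac, Hist1h2bq and Hist1h4n reached the detection limit only through replicate 1, where all 4 were highest, so the detected genes are in part selected for it. Over all 57 histone genes with a count, 33 (57.9%) had their highest normalized count in replicate 1, beside 30.9% of 24002 genes with a count. On the TPM scale it was 24 of 57 (42.1%), beside 14.5%. Of the 20 histone genes that reach the limit in replicates 2 and 3 alone, 13 were highest in replicate 1 in normalized counts and 10 in TPM. Of all 14527 genes chosen in this way it was 28.1% in normalized counts and 7.27% in TPM. Summed, the normalized histone level was 79.3, 45.0 and 43.3 CPM, and without Hist3h2a 57.0, 32.1 and 28.3. Without replicate 1, 4 of 20 genes were called, beside 43.5% of all genes tested, and without replicate 3, 10 of 25, beside 41.6%. With DESeq2 size factors 17 of 24 were called (54.7% of all genes), with total count scaling 18 of 24 (60%), and in the tables made from the reads 19 of 29 (55.1%). With the near-identical pairs left out, 13 of 20 genes were called, beside 54.9% of all genes tested, and 12 of these 13 were highest in replicate 1.

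Several other measures moved with replicate 1, and their part in the result was not tested. The median effective length of the 67 genes, the number of positions at which a fragment can start, was 338, 275 and 282 bases. Replicate 1 had the largest RNA input, 1 µg, and with 1 library for each amount the input and the replicate cannot be told apart. The fibroblast markers were lowest there, with sums of 0.072, 4.31 and 5.27 CPM. Other lists differed between the libraries too. Of the 10 lists with a detected gene, 5 had their highest summed CPM in replicate 1: the mitotic genes (740, 300 and 695), the chaperones (1707, 1470 and 1304), the macrophage markers (2457, 2252 and 1908), the decay genes (543, 487 and 465) and the replacement variants (457, 366 and 409). Mki67 made up most of the mitotic sum, with 9936, 4615 and 11109 counts before scaling to library size. Top2a, the next mitotic gene by counts, had 142, 277 and 191, so the order of the mitotic sum is that of Mki67. The S-phase genes had 157, 215 and 141 CPM, the transcription and 3′ end processing genes 431, 469 and 367, and the cell cycle inhibitors 439, 370 and 462.

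**Figure D5:**
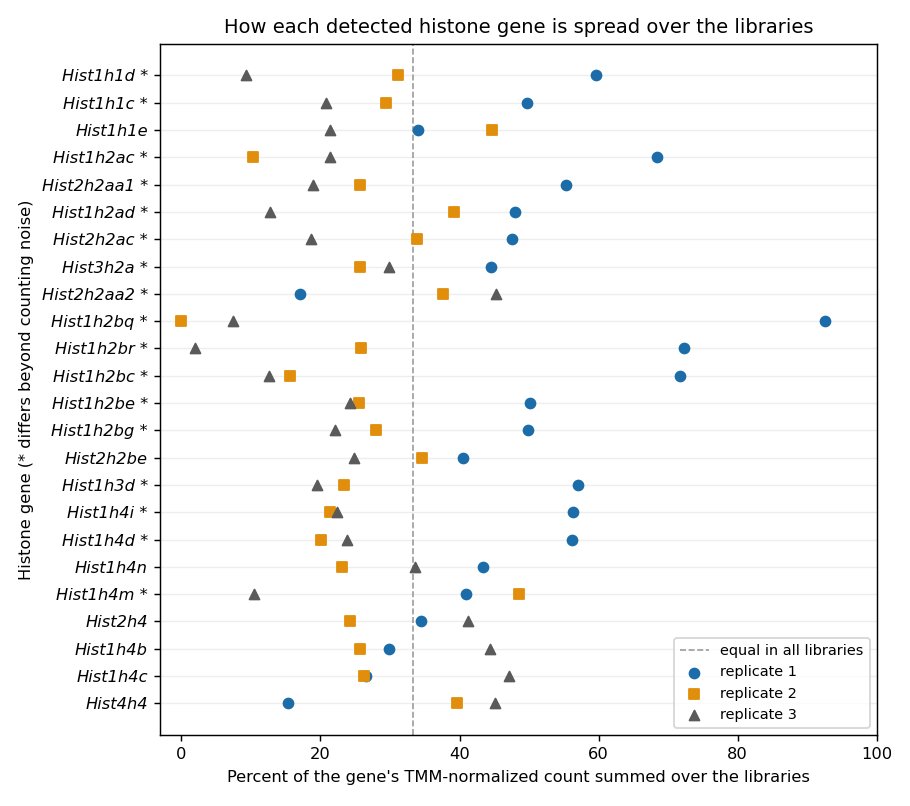
For each of the 24 detected histone genes (y axis, grouped by class), the percent of its TMM-normalized count that lies in each library (x axis), where equal levels would give the dashed line. Genes marked with a star were called by the chi-square test; in 15 of these 17 the point of replicate 1 lies farthest to the right, and Hist2h2aa2 and Hist1h4m are the exceptions.

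By position, 54 of the 67 genes lie on chromosome 13, 10 on chromosome 3, 2 on chromosome 11 and Hist4h4 alone on chromosome 6. Of these, 17, 5, 1 and 1 were detected. Chromosome 13 held 67.8% ± 2.86 of the histone TPM and 51.6% ± 7.98 of the counts, and chromosome 3 held 21.9% ± 3.61 and 15.7% ± 3.89. Split at gaps of over 100 kb, chromosome 13 has 4 groups of 18, 5, 29 and 2 genes (21715763 to 21837530, 22035164 to 22043676, 23531050 to 23764406 and 23933773 to 23934851), with 4, 1, 12 and 0 detected. The last group is the pair Hist1h2aa and Hist1h2ba, both at 0.

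Many H2A and H2B genes lie head to head and share the stretch between their starts. There were 12 such pairs, with starts 176 to 306 bp apart. In 2 pairs both genes were detected, in 4 only 1 was, and in 6 neither. Both were detected for Hist1h2ac and Hist1h2bc, with starts 251 bp apart and means of 13.5 and 37.7 counts, and for Hist2h2ac and Hist2h2be, 239 bp apart with 21.7 and 24.7 counts. Hist1h2ac, described here because its partner was named, had 1.90, 0.285 and 0.591 normalized CPM (adjusted p = 6.69e-06 by the chi-square test with edgeR factors). Both genes of that pair were highest in replicate 1, as were 17 of the 24 detected histone genes. Hist1h2ac reached the detection limit only through replicate 1, so its call and its p-value rest on a gene selected by that library. In the tables made from the reads both genes were detected in 4 pairs, and without replicate 1 in 1 pair of the gene tables.

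The promoters are shown because the classes differ in the motifs they hold. RefSeq promoters on GRCm38.p6, from 250 bases before to 50 after the start, were matched for 61 of the 67 genes. The octamer ATTTGCAT, which the factor Oct-1 binds, was found on either strand in 7 of 18 H2A promoters and 6 of 16 H2B promoters and in none of the 27 others, beside 1.74% of 32851 promoters in the table. The letters CCAAT were on either strand in 52 of 61 promoters, among them all 49 of H1, H2A, H2B and H3 and 3 of 12 of H4, beside 37.4% of all. TATAAA was in 34 of 61, beside 13.6%. The windows of head-to-head genes, with starts 176 to 306 bp apart, overlap. A single site can therefore be counted for both an H2A and an H2B gene, and these hits are not independent. Of the 20 detected genes with a promoter, 4 held the octamer. A match describes the letters only and shows no binding. The 250 bases before the start of 4 genes follow, 5′ to 3′ on the gene's strand, with these 3 motifs in capitals on either strand.
Hist3h2a: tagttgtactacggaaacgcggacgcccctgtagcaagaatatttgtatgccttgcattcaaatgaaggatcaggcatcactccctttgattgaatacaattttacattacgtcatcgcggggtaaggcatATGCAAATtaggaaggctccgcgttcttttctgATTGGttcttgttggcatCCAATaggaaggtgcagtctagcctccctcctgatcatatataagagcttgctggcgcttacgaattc
Hist1h2bg: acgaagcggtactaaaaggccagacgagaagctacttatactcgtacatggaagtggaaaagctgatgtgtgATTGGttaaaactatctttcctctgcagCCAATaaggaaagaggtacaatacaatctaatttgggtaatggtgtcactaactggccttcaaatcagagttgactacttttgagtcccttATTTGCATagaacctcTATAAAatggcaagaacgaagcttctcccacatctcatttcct
Hist1h2ac: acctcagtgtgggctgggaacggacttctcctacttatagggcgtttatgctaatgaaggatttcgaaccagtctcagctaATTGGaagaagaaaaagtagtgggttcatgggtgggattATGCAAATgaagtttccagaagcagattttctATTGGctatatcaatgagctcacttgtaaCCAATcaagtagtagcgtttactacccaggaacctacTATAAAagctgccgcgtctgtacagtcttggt
Hist1h4i: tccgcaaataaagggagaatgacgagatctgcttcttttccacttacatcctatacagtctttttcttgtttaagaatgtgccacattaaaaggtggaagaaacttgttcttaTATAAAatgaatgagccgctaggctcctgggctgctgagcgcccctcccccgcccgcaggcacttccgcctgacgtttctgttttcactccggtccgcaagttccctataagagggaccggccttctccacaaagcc
They lie at chr11:58954435-58954684 (plus strand), chr13:23571150-23571399 (plus strand), chr13:23683960-23684209 (minus strand) and chr13:22041363-22041612 (minus strand). The octamer is in Hist3h2a, Hist1h2bg and Hist1h2ac, reversed in both H2A genes, and not in these letters in Hist1h4i. It begins 119, 59 and 130 bases before the start. The stretch before Hist1h2ac is the one it shares with Hist1h2bc.

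Genes that act on histone genes and their RNA were detected almost in full, beside 49.7% of protein-coding genes. Of 16 genes for histone gene transcription and 3′ end processing, 15 passed the detection limit, and the median was 4.70 TPM. The highest were Srrt (also called Ars2), a partner of the cap-binding complex, with 140 ± 15.2 TPM, Hinfp, the factor that activates H4 genes, with 24.8 ± 4.32, and the scaffold Sympk with 20.2 ± 3.86. Zfp473, a zinc finger protein of the processing complex, was the undetected one, with 9.67 counts. Slbp, the stem-loop binding protein, had 13.5 ± 3.25 TPM (10.5, 16.9 and 13.0), and Npat, the cyclin E target that activates histone genes in S phase, had 2.37 ± 0.693 (1.80, 3.14 and 2.16); both are given for their role, outside the rule for named genes. All 5 decay genes found were detected, led by the exonuclease Xrn1 with 69.6 ± 0.804 TPM, the decapping enzyme Dcp2 with 22.7 ± 4.36 and the helicase Upf1 with 17.5 ± 3.58. Zcchc6 and Zcchc11 were asked for and not found under these symbols.

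Replacement variants, histones that can be made outside S phase, included genes with far more RNA than the replication-dependent ones. Of 10, 8 were detected, and H3f3b, which encodes H3.3, had 242 ± 33.8 TPM (217, 228 and 280). This 1 gene was above the summed 103 TPM of the 67 replication-dependent genes in every library. H2afy, which encodes macroH2A, had 84.2 ± 5.11 and H3f3a, the other H3.3 gene, 31.1 ± 5.13, whereas H2afx and H1fx were not detected. Of 18 genes for chaperones and the acetyltransferase of new histones, 17 were detected. The highest were Atrx with 280 ± 11.8 TPM and Daxx with 127 ± 19.1, the partners that deposit H3.3, and Ubn1 of the HIRA complex with 47.3 ± 1.82. Asf1b, a chaperone used in replication, was not detected.

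Cell cycle genes were described for comparison. Of 23 S-phase genes, 22 passed the limit (median 2.55 TPM), led by Tk1 with 31.2 ± 7.66, Pcna with 20.3 ± 2.87 and Pola1 with 9.99 ± 1.07, and Fen1 was not detected. Of 12 mitotic genes 9 passed (median 1.10 TPM). Mki67, a marker of dividing cells, had 63.3 ± 27.1 TPM (72.3, 32.9 and 84.8), Top2a 5.22 ± 2.76 and Birc5 1.62 ± 0.561, whereas Ccnb1, Ccnb2 and Cdc20 did not pass. Of 8 inhibitors of the cell cycle 5 were detected, led by Cdkn1a with 159 ± 51.0 TPM, Rb1 with 57.0 ± 5.93 and Rbl1 with 18.7 ± 2.75, and Cdkn1c, Cdkn2c and Cdkn2d were not. The S-phase list was thus detected nearly in full beside 24 of the 67 histone genes, a difference that was not tested.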

How the data were processed

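RNA-seq libraries of chromatin-bound RNA were analysed, 3 in all, from 1 group. The authors deposited gene and transcript tables in the column layout of RSEM, with expected counts and TPM, and transcript tables in the layout of kallisto, with estimated counts and TPM, on mm10 with GENCODE M21. Expected counts in the deposited tables are model estimates and may be fractional, and deposited TPM has the same total in each table. The deposited signal columns hold bounds of an interval of TPM, per the file headers, and were not used. The aligner and its version: not given in the sources used here. Gene tables gave the main values. Tables made from the reads, summed to genes, were the alternative. Entries that name no gene (1.13%, 0.324% and 0.279% of counts) were left out of library sizes. The members and gene lists were chosen with earlier results of these data known.

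Counts were rounded for the chi-square test against Poisson sampling, with TMM library sizes from edgeR 4.0.16 in R 4.3.3, over all 14320 genes whose counts averaged at least 10, adjusted by Benjamini-Hochberg at 0.05. Dispersion came from edgeR with an intercept only. On simulated data for this test, 99.5% of 200 genes changed 2-fold were recovered among 14320 genes, with 0.0779% of the others called. The changed genes were drawn only from genes with more counts than any detected histone gene but Hist3h2a. Recovery at the lower counts of the other histone genes was therefore not measured. There was 1 group, so no contrast was fitted. Given by library were the 3 highest detected genes of each class by mean TPM and Hist4h4, Hist1h1t, Hist1h2ba and Hist1h2aa, and of each list the 3 highest and up to 3 undetected genes in list order. Alternatives were DESeq2 1.42.0 size factors, total count scaling, other count limits, a pseudocount of 0.1 in place of 1, dropping each replicate in turn, and the tables made from the reads. Added after the data were seen were counts in place of TPM by transcript end, the sum and the transcript ends without Hist3h2a, the replicate that is highest over genes chosen without replicate 1, and the test without the near-identical pairs.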

Additional observations from a re-analysis of the deposited data

How the results depend on the processing

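No paired analysis was possible because all 3 libraries belong to 1 group. The number detected depended on the limit set: 13 histone genes had a mean of at least 20 counts and 40 had a count in every library, beside the 24 with a mean of at least 10. The summed level was 103 TPM, 344 ± 47.2 when TPM was rescaled over protein-coding genes, 93.0 ± 9.33 without Hist3h2a, and 98.6 to 108 with a replicate left out. In the tables made from the reads the class shares of TPM were 32.9% for H2A, 24.2% for H2B and 32.2% for H4. With counts in place of TPM they were 9.68% for H1, 45.6% for H2A and 20.0% for H4, and transcripts that run past the stem-loop held 66.8%; without Hist3h2a these held 26.4% of the TPM. The number of histone genes that differed between libraries was 4 to 15 with a replicate left out (4 without replicate 1, 15 without replicate 2 and 10 without replicate 3), where 43.5%, 27.9% and 41.6% of all genes tested were called. It was 17 with DESeq2 size factors, 18 with total count scaling, 17 of 57 with no filter on low counts, beside 32.4% of all genes tested, 19 in the tables made from the reads and 13 without the near-identical pairs. Pairs with both genes detected were 4 in the tables made from the reads and 1 to 3 with a replicate left out. Of the 8 cell cycle inhibitors, 8 were detected in the tables made from the reads and 5 in the gene tables. The cause of these changes was not tested. Of 17 genes given by library, 7 moved by more than the spread between replicates in the tables made from the reads and 10 did not. Among these 10 are Hist1h2aa and Hist1h2ba, which were at 0 in every library of both quantifications and so could show no move.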
